A study of Mus musculus with 12 samples.

Results

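The BCL2 family genes described here are 10 regulators of the mitochondrial pathway of cell death, listed by symbol: Mcl1, Bcl2, Bcl2l1, Bcl2l11, Bid, Bbc3, Pmaip1, Bad, Bax and Bak1. A single-gene probe set was found for 9 of the 10, out of 19938 genes measured this way, and each of the 9 has 1 such probe set. Bax was matched to no probe set and was not analysed here. The transcripts were measured on Affymetrix mouse gene arrays in plasma cells from a recall response, 6 wild-type (Zbtb32 +/+) and 6 Zbtb32-/- arrays. CD45.2 splenocytes of either genotype came from donors immunised with NP-CGG (the hapten NP on a carrier protein) and were moved into CD45.1 recipients, which then received the antigen. After 7 days, bone marrow cells were sorted that carried CD138 and CD45.2, bound NP and lacked CD45.1, B220, CD11b and Ly6g. Whole splenocytes were transferred, so other donor cells of a recipient carried the same genotype as its plasma cells. The ages of the mice, the deleted part of Zbtb32 and any pooling of animals are not given in the sources used here.

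Proteins of this family decide whether the outer membrane of the mitochondria stays closed. Mcl1, Bcl2 and Bcl-xL (the product of Bcl2l1) hold it closed, Bax and Bak1 form the pores that open it, and the BH3-only proteins Bim (Bcl2l11), Bid, Puma (Bbc3), Noxa (Pmaip1) and Bad free or activate the pore formers. Plasma cells of the bone marrow are known to depend on Mcl1 for survival, and much of the family's control lies in protein turnover and cleavage, which arrays do not measure. The arrays give 1 value per gene and do not tell the splice forms of Mcl1, Bcl2l1 or Bcl2l11 apart.

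The probe set of Zbtb32 itself did not separate the genotypes: it ran from 6.39 to 6.88 in wild-type arrays (6.67 ± 0.16, SD, n = 6) and from 6.47 to 6.73 in Zbtb32-/- arrays (6.56 ± 0.10, SD, n = 6). Since the deleted part is unknown here, this signal provides no check of the labels, and every genotype below is the labelled one. The plasma cell genes Sdc1, which encodes CD138, and Jchain were high on every array. Sdc1 ran from 10.32 to 11.34 and Jchain from 13.51 to 13.94 (log2 RMA value). In this normalized expression value 1 unit is a 2-fold change. The mean of 12 plasma cell markers ran from 10.89 to 11.68 in wild-type and from 10.99 to 11.70 in Zbtb32-/- arrays. Other markers of that list were lower, with Prdm1 from 8.51 to 10.09 and Tnfrsf17 at a mean of 8.63. Genes of other marrow cells were also present. The mean of 15 neutrophil markers ran from 7.97 to 10.99 in wild-type and from 8.97 to 12.16 in Zbtb32-/- arrays, and S100a9 averaged 12.55, although the gate removed cells with Ly6g and CD11b. The mean of 11 B cell markers ran from 7.45 to 8.97 and from 7.84 to 8.49, and that of 10 erythroid markers from 6.21 to 7.92 and from 6.75 to 7.52. Arrays numbered 1 to 3 and 4 to 6, each with 3 arrays per genotype, are known from earlier results to stand apart. The numbers are no batch in the labels, and differences within each set are given for the members, the role groups and the gene lists. In bulk RNA, fewer cells of a type and less RNA per cell cannot be told apart.

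The promoters of Bid and Mcl1 are shown because Bid had the smallest p-value of the family and Mcl1 is its main survival factor in plasma cells. Each line gives the 250 bases before the RefSeq start, 5′ to 3′ along the gene (GRCm38.p6), with motif matches in capitals: GGGCGG, the GC box bound by Sp1-type factors, and TTTGAA, the CHR element found in many cell cycle promoters, on either strand. Bid lies at chr6:120916825-120917074 on the minus strand and Mcl1 at chr3:95658471-95658720 on the plus strand.
Bid: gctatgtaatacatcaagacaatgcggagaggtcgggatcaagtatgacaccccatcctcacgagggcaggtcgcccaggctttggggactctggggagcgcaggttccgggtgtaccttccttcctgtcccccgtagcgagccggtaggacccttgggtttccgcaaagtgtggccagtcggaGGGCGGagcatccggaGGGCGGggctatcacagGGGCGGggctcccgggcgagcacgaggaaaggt
Mcl1: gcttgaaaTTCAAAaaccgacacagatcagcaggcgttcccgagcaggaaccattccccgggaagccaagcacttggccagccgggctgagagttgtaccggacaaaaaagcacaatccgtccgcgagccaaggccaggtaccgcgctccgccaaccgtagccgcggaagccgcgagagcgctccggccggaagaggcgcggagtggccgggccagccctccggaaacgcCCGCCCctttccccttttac
In Bid the 3 GC boxes start at positions -66, -50 and -33 from the start site, while Mcl1 has 1 GC box at -20 and 1 CHR match at -242. At least 1 GC box was present in 35.7% of all 32851 promoter windows of 300 bases (250 before to 50 after the start), and TTTGAA in 17.9%. Neither window holds TTCCCGC or TTGGCGC, E2F-type sequences of S phase promoters that 4.60% and 2.45% of windows hold, or CCAAT, which 37.4% hold. The matches are a description of the letters and say nothing about which factor binds.

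Bid, a BH3-only protein that caspase 8 can cut into an active fragment, had the largest difference between the genotypes among the members, and it did not pass adjustment over the genes tested. Its log2 value in wild-type arrays was lowest at 7.91, with a median of 8.18 and a highest value of 8.67. In Zbtb32-/- arrays the lowest was 8.64, the median 8.87 and the highest 8.98. The groups overlapped through wild-type replicate 1 and Zbtb32-/- replicate 6 alone: 5 of 6 Zbtb32-/- arrays lay above every wild-type array, and 5 of 6 wild-type arrays lay below every Zbtb32-/- array. The means were 8.21 ± 0.32 and 8.84 ± 0.12 (SD, n = 6 each), a difference (Zbtb32-/- minus wild type) of 0.63 (SE 0.15, 95% interval 0.31 to 0.95), or 1.55-fold. In the limma fit over 14993 genes this gave an unadjusted p of 0.000817, the fourth smallest of the table, and an adjusted p of 0.933. The two-sided exact permutation p over every assignment of 6 of the 12 arrays was 0.00433, where 0.00216 is the smallest such a design allows. Bid was known from earlier results of these data to have a small p, so its rank is no independent evidence. Replicates 1 to 3 gave a difference of 0.60 and replicates 4 to 6 one of 0.67.

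**Figure D1:**
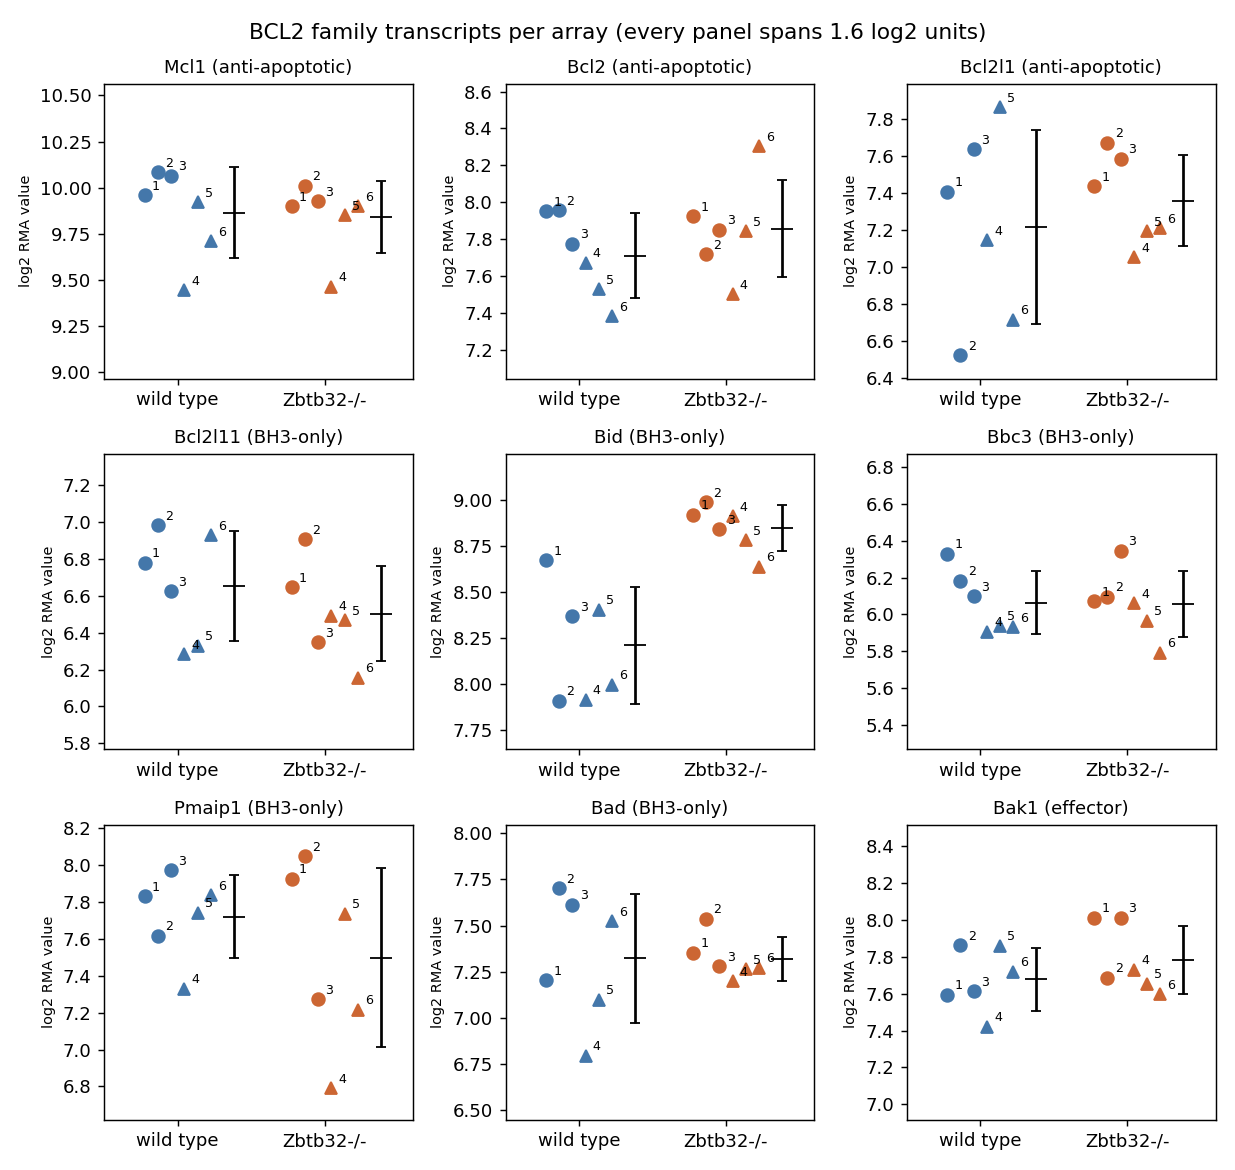
Log2 RMA value of the 9 measured BCL2 family genes on each array (y axis, its own range per gene) by genotype (x axis); circles are replicates 1 to 3, triangles replicates 4 to 6, numbers are replicate numbers, and the black bar is the mean with its SD (n = 6). Bid is the panel where 5 of 6 Zbtb32-/- arrays lie above every wild-type array, and Mcl1 is lowest in replicate 4 of both genotypes.

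The other BH3-only genes had values that overlapped widely between the genotypes. Bcl2l11, which encodes Bim, a strong activator of Bax and Bak1, ran from 6.28 through a median of 6.70 to 6.98 in wild-type arrays and from 6.15 through 6.48 to 6.91 in Zbtb32-/- arrays, a difference of -0.15 (SE 0.15, limma unadjusted p = 0.332). Its highest values in each genotype were those of replicate 2, and only that Zbtb32-/- array lay above the wild-type mean. Pmaip1 encodes Noxa, which binds Mcl1 and promotes its breakdown. It ran from 7.33 through 7.79 to 7.97 in wild-type arrays and from 6.79 through 7.50 to 8.05 in Zbtb32-/- arrays, a difference of -0.22 (SE 0.20, limma unadjusted p = 0.293). Its spread was wide in Zbtb32-/- arrays (SD 0.49, against 0.22 in wild type), with replicate 4 lowest and replicates 1 and 2 highest, and without Zbtb32-/- replicate 4 the difference was -0.08. Within replicates 1 to 3 Pmaip1 differed by -0.06 and Bcl2l11 by -0.16; within replicates 4 to 6 the values were -0.39 and -0.14.

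Bbc3 and Bad had the smallest differences of the BH3-only genes. Bbc3, the gene of Puma, a target of p53 that binds every anti-apoptotic member, ran from 5.91 through 6.02 to 6.33 in wild-type and from 5.79 through 6.07 to 6.35 in Zbtb32-/- arrays. Its difference was -0.01 (95% interval -0.23 to 0.21), 0.03 after renewed quantile normalization and 0.02 after median centring, so the sign turned with the scaling. Bad, whose protein is held inactive by phosphorylation under growth factor signals, ran from 6.79 through 7.36 to 7.70 and from 7.20 through 7.28 to 7.54. Its difference was -0.01 (95% interval -0.33 to 0.32) and turned to 0.02 after median centring. The 6 wild-type arrays spread more widely for Bad (SD 0.35) than the Zbtb32-/- arrays (SD 0.12), with wild-type replicate 4 lowest and replicate 2 highest. The sets had opposite signs for both genes: Bbc3 differed by -0.03 in replicates 1 to 3 and 0.02 in replicates 4 to 6, and Bad by -0.12 and 0.11.

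Among the anti-apoptotic genes Mcl1 had nearly equal means in the genotypes. It ran from 9.44 through 9.94 to 10.08 in wild-type arrays and from 9.46 through 9.90 to 10.01 in Zbtb32-/- arrays, with means of 9.86 ± 0.25 and 9.84 ± 0.19 (SD, n = 6 each). The difference was -0.02 (SE 0.14), and its 95% interval, -0.31 to 0.27, corresponds to 0.804-fold to 1.20-fold. The sign turned after median centring (0.0017), and it differed between the sets, at -0.09 in replicates 1 to 3 and 0.05 in replicates 4 to 6. Replicate 4 had the lowest Mcl1 value of each genotype.

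Bcl2, the founding member of the family, ran from 7.38 through 7.72 to 7.96 in wild-type and from 7.50 through 7.85 to 8.30 in Zbtb32-/- arrays, a difference of 0.15 (SE 0.15, limma unadjusted p = 0.342). The highest value was that of Zbtb32-/- replicate 6, the array with the highest mean of neutrophil markers (12.16), and without it the difference was 0.06. Over the 12 arrays Bcl2 had Pearson r = 0.03 and Spearman rho = -0.28 with the mean of the neutrophil markers. Without wild-type replicate 2 and Zbtb32-/- replicate 6 r was -0.51. Within replicates 1 to 3 r was -0.84, and within replicates 4 to 6 it was 0.86. The part of other cells in the level of Bcl2 was not tested beyond these values. The genotype difference of Bcl2 was -0.06 in replicates 1 to 3 and 0.35 in replicates 4 to 6. Bcl2l1, whose product Bcl-xL also guards erythroid precursors, ran from 6.52 through 7.28 to 7.87 in wild-type and from 7.05 through 7.33 to 7.67 in Zbtb32-/- arrays. Its difference was 0.14 (SE 0.22, limma unadjusted p = 0.515), with 0.38 in replicates 1 to 3 and -0.09 in replicates 4 to 6. Wild-type replicates 2 and 6 were its lowest arrays, at 6.52 and 6.71, and without this pair the difference was -0.15. Without replicate 2 alone it was 0.01. Leaving out the lowest wild-type arrays of a gene raises its wild-type mean by construction, so these falls are no separate result. Wild-type replicate 2 also had the lowest mean of erythroid markers, 6.21. Wild-type replicate 6 had 6.73, and wild-type replicate 5, with the highest Bcl2l1 value, had 6.67. The correlation of Bcl2l1 with these markers is given under other observations, and the part of such cells was not tested beyond it.

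Bak1, the pore-forming effector that was measured, ran from 7.42 through 7.67 to 7.86 in wild-type and from 7.60 through 7.71 to 8.01 in Zbtb32-/- arrays. The difference was 0.10 (SE 0.12, limma unadjusted p = 0.410). Zbtb32-/- replicates 1 and 3 lay above every wild-type array, with a difference of 0.21 in replicates 1 to 3 and of -0.01 in replicates 4 to 6.

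**Figure D2:**
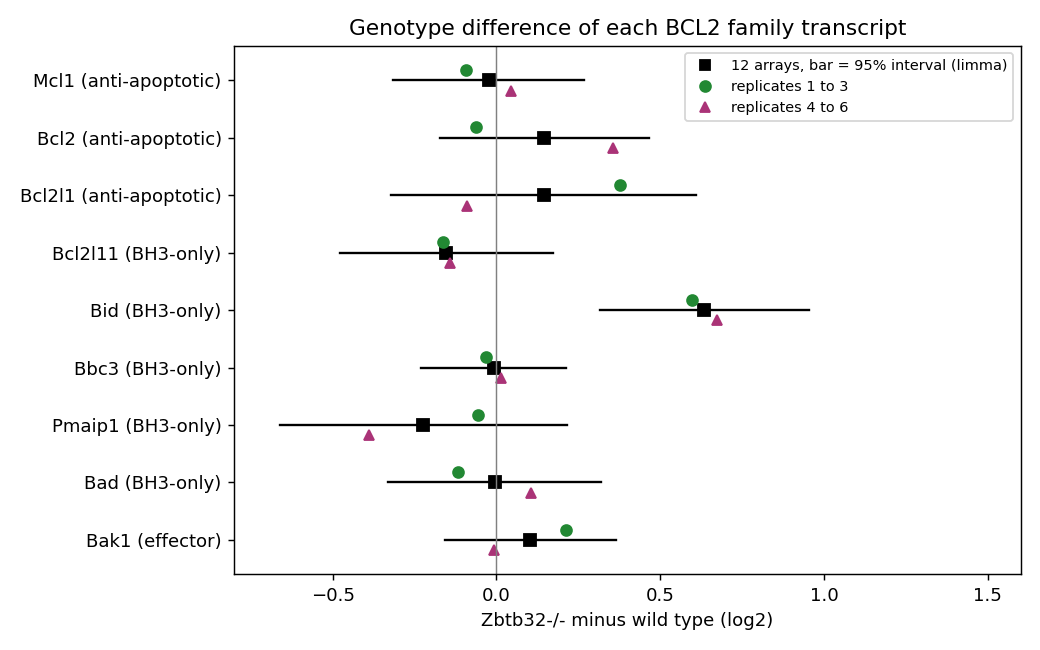
Genotype difference (x axis, Zbtb32-/- minus wild type, log2) of each measured member (y axis); squares are the 12-array values with 95% limma intervals, circles the difference over replicates 1 to 3 and triangles over replicates 4 to 6. The interval of Bid runs from 0.31 to 0.95, and those of the other 8 genes span 0.

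Of the 9 measured members, which also passed the filter on low values, 0 passed an adjusted p of 0.05 in limma, as did 0 (0%) of the 14993 genes tested. At an unadjusted p under 0.05 there was 1 member, Bid, against 4.28% of the genes tested. In the positive direction it was 1 of 9 against 2.83%, and in the negative direction 0 of 9 against 1.45%. For the other 8 members two-sided exact permutation p-values ran from 0.327 to 0.968. Positive differences were found for 4 of 9 members and 52.9% of genes, and the median difference was -0.01 over members and 0.01 over the genes tested. No member had groups that do not overlap, which 0.153% of genes had. The number of genes at an unadjusted p under 0.05 depended on single arrays: it was 642 with 12 arrays, 1416 once the third wild-type array was left out, 1005 once the first was, and 968 once Zbtb32-/- array 6 was. The 95% interval excluded a 2-fold change for 9 of 9 members (95.3% of the genes tested) and a 1.5-fold change for 6 of 9 (73.4%), the exceptions being Bid, Pmaip1 and Bcl2l1. Low values are compressed by RMA, which bears most on Bbc3.

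By role, the groups lay close together. The mean over the 3 anti-apoptotic genes, each centred on its own mean, differed by 0.09 (SE 0.12), and that over the 5 BH3-only genes by 0.05 (SE 0.11). The sign of either mean was not stable. The BH3-only mean was -0.02 without wild-type replicate 4, -0.01 without Zbtb32-/- replicate 2 and -0.06 with the cell division covariate. The anti-apoptotic mean was -0.01 without wild-type replicates 2 and 6 and -0.14 with that covariate. Wild-type replicates 2 and 6 held the lowest Bcl2l1 values, so leaving them out lowers this difference through Bcl2l1 by construction. Within replicates 1 to 3 and 4 to 6 the anti-apoptotic mean differed by 0.07 and 0.10 and the BH3-only mean by 0.05 in each. Without Bid the other 4 BH3-only genes differed by -0.10 (SE 0.12), with -0.09 and -0.10 in the sets. The heat map of centred values shows how far arrays of 1 genotype differed. In wild-type replicate 4, 9 of 9 members were below their mean over the 12 arrays, and in Zbtb32-/- replicate 4 Pmaip1 was lower by 0.82 while Bid was higher by 0.38. All 9 members were lower in replicates 4 to 6 than in replicates 1 to 3, with differences of -0.13 to -0.34 and a median of -0.25, where 61.2% of the genes tested were lower and the median was -0.06.

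**Figure D3:**
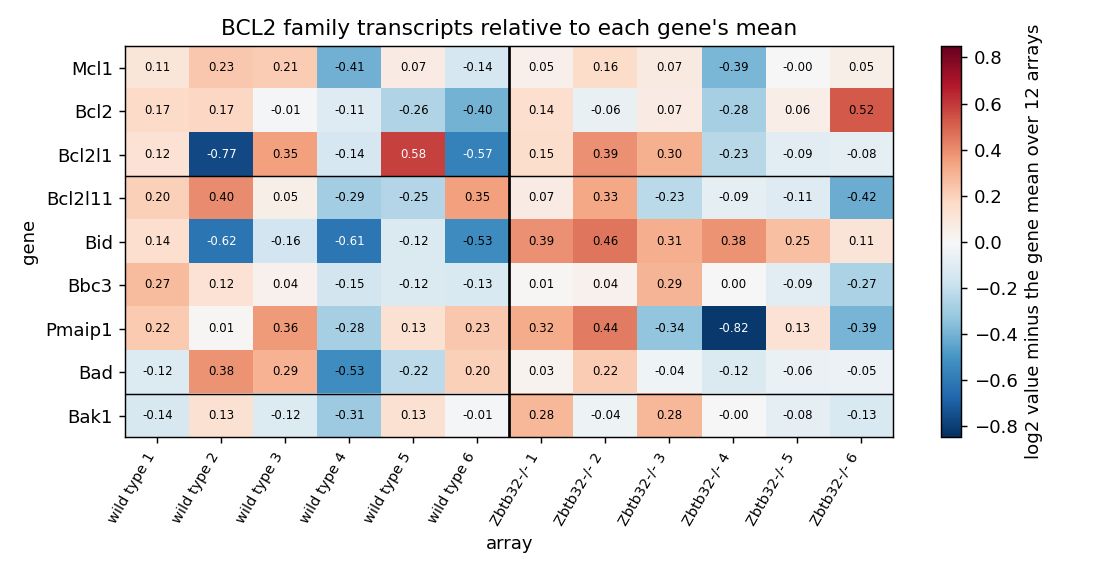
Log2 value minus the gene's mean over the 12 arrays (colour and number) for each measured member (rows, anti-apoptotic, BH3-only and effector from top to bottom) on each array (columns). The row of Bid is positive on the 6 Zbtb32-/- arrays and negative on 5 of 6 wild-type arrays; the column of wild-type replicate 4 is negative for 9 of 9 genes.

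Members also differed in their spread. The SD within a genotype, pooled over both, was widest for Bcl2l1 (0.41) and Pmaip1 (0.38), wider than in 82.3% and 78.0% of the genes tested. It was narrowest for Bbc3 and Bak1 (0.18 each), wider than in 25.9% and 26.5%, and the median over the genes tested was 0.25. For Mcl1 it was 0.22.

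Which arrays were high differed too. Of the 36 pairs of members, the closest over the 12 arrays were Bcl2l11 with Bad (Pearson r = 0.72), Mcl1 with Bad (0.67) and Mcl1 with Pmaip1 (0.63), and the lowest value was that of Bcl2l1 with Bcl2l11 (-0.37). These values are descriptions, since the arrays share normalization and the set difference above. Bid and Bcl2l1 had r = 0.55 over the 12 arrays and 0.70 after the genotype means were removed. Among 13729 other genes, those whose pattern over the 12 arrays was most like Bid were Srbd1 (r = 0.94), Nudt13 (0.92) and Tubg1 (0.92), the gamma tubulin of spindle poles. For Mcl1 they were Adssl1 (0.97), Stim1 (0.92) and Ccpg1 (0.91), for Bcl2 Mtmr3, Golim4 and Adipor2 (0.90 each) and for Bcl2l1 Rttn, Fam204a and Lpgat1 (0.92 each). Bbc3 was most like Hyou1 (0.93), a chaperone of the endoplasmic reticulum, Eaf2 (0.92) and Slamf7 (0.91), genes that plasma cells express highly. Bcl2l11 was most like Gipc1 (0.92), Bcorl1 (0.89) and Dmrta2 (0.88), Pmaip1 like Rom1 (0.92), Mettl17 (0.90) and Zfp605 (0.89), and Bad like Rad17 (0.91), Rars2 (0.89) and Necap2 (0.89). For Bak1 the values were lower, with Spout1 (0.84), Tab1 (0.82) and Tmem132c (0.81).

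The members were then set against the array means of the neutrophil markers and of 17 cell division genes, 18 relations in all, with permutation p-values adjusted over the 18. Bid rose with the cell division mean (Pearson r = 0.82, permutation p = 0.00194, adjusted 0.0175). By rank the relation was weaker and did not pass (Spearman rho = 0.60, permutation p = 0.0434, adjusted 0.260). Without wild-type replicates 4 and 6, which are the arrays farthest from the median of the cell division mean, r was 0.68. It was 0.66 within replicates 1 to 3, 0.94 within replicates 4 to 6 and 0.61 after removal of the genotype means. Within the 6 wild-type arrays r was 0.69 and within the 6 Zbtb32-/- arrays 0.03, where both measures span a narrow range. An r at least as high was found for 1.75% of the genes tested. The cell division mean itself ran from 8.83 to 9.53 in wild-type and from 9.36 to 9.55 in Zbtb32-/- arrays, and with it as a covariate the difference of Bid was 0.38 (limma unadjusted p = 0.0542). The part of cell division in the difference of Bid was not tested beyond these values.

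Bbc3 fell as the neutrophil markers rose (r = -0.82, permutation p = 0.00107, adjusted 0.0175; rho = -0.87, adjusted permutation p = 0.009). It was -0.85 without the farthest arrays, wild-type replicate 2 and Zbtb32-/- replicate 6, -0.42 within replicates 1 to 3 and -0.94 within replicates 4 to 6. An r as low was found for 0.807% of the genes tested. Of the 18 relations, 2 passed an adjusted p of 0.05. Bcl2l11 had r = -0.60 with the neutrophil markers (permutation p = 0.039, adjusted 0.234) and rho = -0.63 (permutation p = 0.0324, adjusted 0.260), and r was -0.18 without the same arrays. Bak1 had r = -0.57 (permutation p = 0.0542, adjusted 0.244) and rho = -0.56 (permutation p = 0.0614, adjusted 0.276), and r was -0.55 without them. For Mcl1 r was -0.30 and rho -0.46 (permutation p = 0.341 and 0.136), and for Bid r was 0.04 and rho -0.11 (permutation p = 0.913 and 0.733). The difference of Bid was 0.64 with the neutrophil mean as a covariate.

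**Figure D4:**
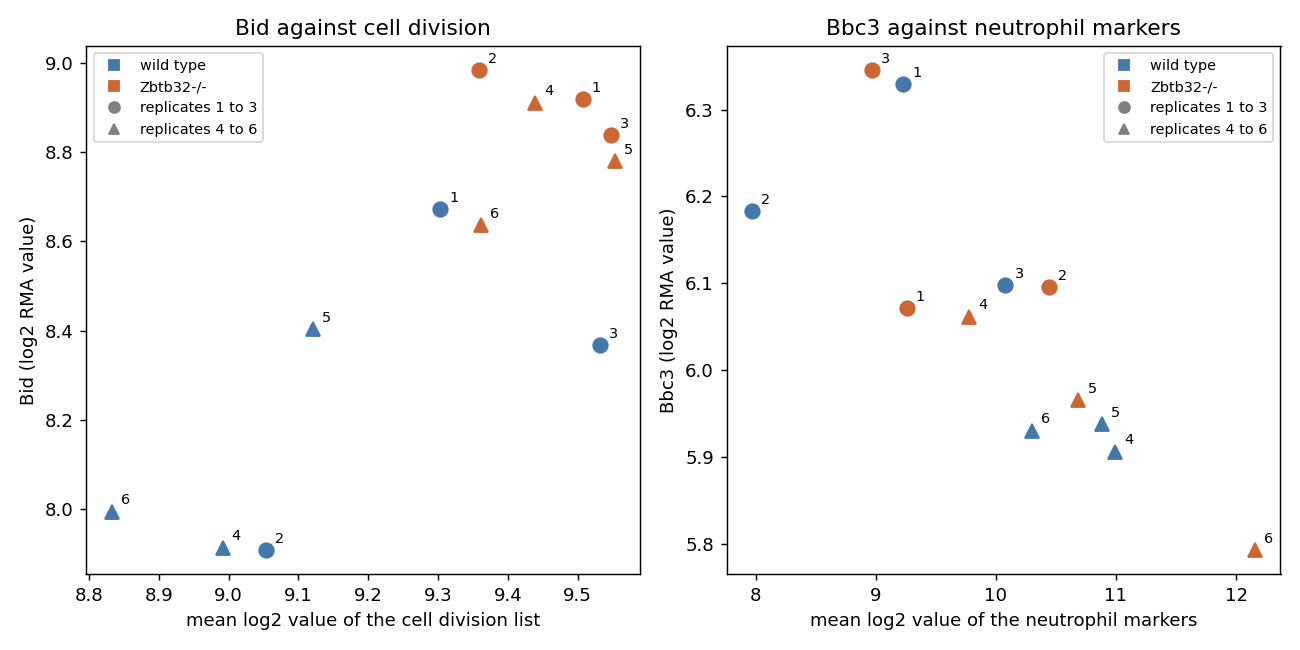
Left, log2 value of Bid (y axis) against the mean log2 value of the cell division genes (x axis); right, Bbc3 against the mean of the neutrophil markers; 1 point per array, coloured by genotype, circles for replicates 1 to 3 and triangles for replicates 4 to 6. Bid is high where the cell division mean is high (r = 0.82), and Bbc3 is low where neutrophil markers are high (r = -0.82).

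Further members of the family and genes that act on it gave 0 calls after adjustment in limma. Their counts stand beside 52.9% of all genes tested with a positive difference and 4.28% at an unadjusted p under 0.05. Of 17 other BCL2 family genes 12 were tested, 7 with a positive difference and 0 at an unadjusted p under 0.05, with a median of 0.02. The smallest p-values belonged to Bnip3, a mitophagy receptor (0.35, SE 0.28), and Bcl2l13 (0.25, SE 0.24, with -0.01 and 0.52 in replicates 1 to 3 and 4 to 6), and the highest level to Bnip3l (0.09, SE 0.13). Bcl2a1a, Bcl2a1b and Bcl2a1d lie on a probe set that names several genes and were not tested. Genes that modify or turn over members had 14 of 23 positive differences and a median of 0.09. At an unadjusted p under 0.05 in limma were Dynll2, a dynein light chain that tethers the BH3-only protein Bmf (0.31, SE 0.14), and Bag6, a chaperone factor (0.27, SE 0.12). Ctsb, cathepsin B, which can cut Bid, had the highest level of this list and differed by -0.05 (SE 0.11). Within replicates 1 to 3 and 4 to 6 the list medians were 0.03 and -0.02 for the other family genes and -0.01 and 0.16 for the modifiers.

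Factors that control transcription of members had 11 of 18 positive differences, 0 at an unadjusted p under 0.05 and a median of 0.05. Myc differed by 0.50 (SE 0.26, limma unadjusted p = 0.0714) and Atf4, a factor of the integrated stress response, by 0.20 (SE 0.13). A list around the mitochondrial step held genes that act after the pore opens, such as Cycs. It also held Mtch2, Vdac1, Vdac2, Vdac3, Opa1, Dnm1l and Bcap31, which are not limited to that step. This mixed list had 13 of 16 positive differences, against 52.9% of the genes tested, and a median of 0.20. At an unadjusted p under 0.05 there were 2, against 4.28%. By limma these were Htra2 (0.40, SE 0.17) and Diablo (0.32, SE 0.14), both released from mitochondria and both antagonists of caspase inhibitors. Cycs, cytochrome c, had the highest level there and differed by 0.14 (SE 0.09). Surface genes linked to plasma cell survival had 6 of 10 positive differences, 0 at an unadjusted p under 0.05 and a median of 0.02. This list is not limited to receptors for survival signals, since it holds the inhibitory receptor Fcgr2b and the tetraspanin Cd37. Il6ra differed by 0.26 (SE 0.13), Cd93 by -0.32 (SE 0.17) and Cxcr4, the highest, by 0.02 (SE 0.15). Cell division genes had 17 of 17 positive differences and a median of 0.31, with 8 at an unadjusted p under 0.05. The shares over all genes were the same 52.9% and 4.28%. Genes of a list can rise and fall together over the arrays, so such counts are not independent. The array mean of the cell division genes differed by 0.32 (SE 0.11). Spc25 differed by 0.52 (SE 0.14), Cdca8 by 0.53 (SE 0.15) and Mki67, the highest, by 0.20 (SE 0.08). Over the genes tested the median was 0.01. The medians within replicates 1 to 3 and 4 to 6 were 0.02 and 0.11 for the transcription factors. They were 0.16 and 0.20 for the mixed mitochondrial list and -0.05 and 0.04 for the surface genes. For the cell division genes they were 0.15 and 0.44. Cxcr4 changed sign between the sets, at -0.08 and 0.12.

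The cell type lists set beside the members also gave 0 calls after adjustment in limma. Between replicates 1 to 3 and 4 to 6 the medians of the B cell markers and of the monocyte and macrophage markers changed sign. The median of the B cell markers was 0.09 and -0.47 in these sets, that of the monocyte and macrophage markers 0.28 and -0.48, and that of the neutrophil markers 0.37 and 0.01. For the plasma cell markers it was 0.01 and 0.18, for the erythroid markers 0.20 and 0.25, for the T and NK cell markers -0.06 and -0.23, and for the basophil and mast cell markers -0.04 and -1.09. Of the 35 list genes named here and above, 8 had opposite signs in the sets: Bcl2l13, Cxcr4, Cd79b (0.11 and -0.23), Elane (-0.05 and 1.67), Camp (1.54 and -0.18), S100a9 (0.37 and -0.23), Cd3d (0.06 and -1.24) and Cd2 (0.63 and -0.63). Over the 12 arrays the lists gave the following values, beside 52.9% of all genes with a positive difference. Plasma cell markers had 9 of 12 positive differences (median 0.10), with Jchain, the highest, at -0.11 and Xbp1 at 0.16. B cell markers had 2 of 11 (median -0.16), with Bach2 at -0.70, Ebf1 at -0.74 and Cd79b, the highest, at -0.06, and T and NK cell markers 1 of 10 (median -0.18), with Cd5 at -0.19, Cd3d at -0.59 and Cd2, the highest, at -0.0024. Bach2 and Cd5 were the genes of these lists at an unadjusted p under 0.05 in limma, against 4.28% of the genes tested. Neutrophil markers had 13 of 15 positive differences (median 0.33), with Elane at 0.81, Camp at 0.68 and S100a9, the highest, at 0.07. Monocyte and macrophage markers had 1 of 10 (median -0.09), with Cd68 at -0.51, Cd14 at -0.43 and Ctss, the highest, at -0.04. Erythroid markers had 8 of 10 (median 0.25), with Car1, the highest, at 0.98 and Ermap at 0.36, and of the basophil and mast cell markers 0 of 2 were positive, Mcpt8 at -0.75 and Prss34 at -0.37.

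The difference of Bid was positive in 26 of 26 alternative settings and lay at an unadjusted p under 0.05 in 25 of them, the exception being the cell division covariate. It passed adjustment in none, and the smallest adjusted p in limma was 0.522. Leaving out single arrays gave 0.57 to 0.73, and leaving out wild-type replicates 2 and 6 gave 0.51. The 26 settings are not independent. The filters, the probe set rule, the robust variance setting and the blocks cannot change the difference, which stayed at 0.63. Fits that leave out 1 array share most of their arrays, so the count is no measure of independent support.

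**Figure D5:**
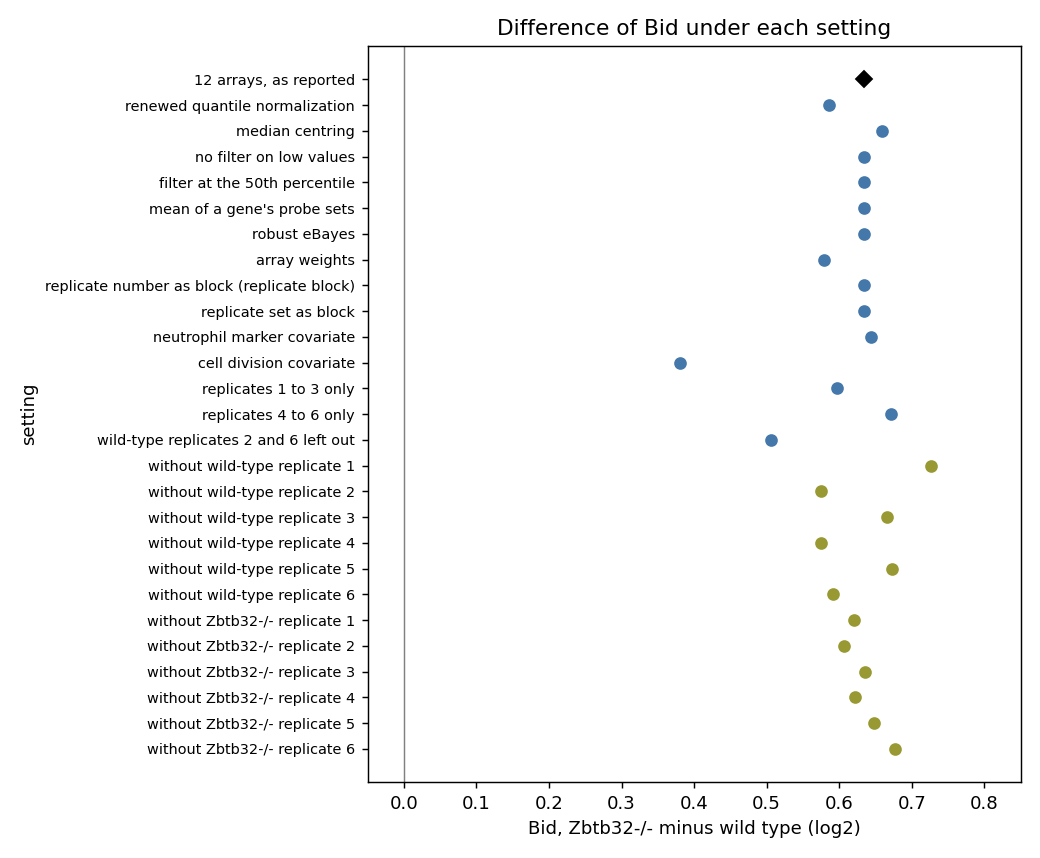
Difference of Bid (x axis, Zbtb32-/- minus wild type, log2) under each setting (y axis); the diamond is the reported value, blue points are other processing choices or subsets and olive points leave out 1 array. The lowest point, 0.38, has the cell division mean as a covariate, and the highest, 0.73, leaves out wild-type replicate 1.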

How the data were processed

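Values were deposited as log2 RMA values, 1 per probe set and array. The submitters' processing notes name RMA and Affymetrix Expression Console as the authors' tools, with no versions given in the sources used here. RMA makes the distributions of arrays alike and so hides differences in total RNA. Of 35556 probe sets, 21789 name 1 gene in the platform annotation. Where a gene had several, the one with the highest mean stood for it, and genes not above the 25th percentile of means (5.49) were left out, leaving 14993. Array medians ran from 6.28 to 6.43. Precision is limited by the number of arrays, with a median half-width of 0.31 for the 95% interval of a difference.

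The tests used limma 3.58.1 under R 4.3.3 (trended eBayes, genotype as sole term, Benjamini-Hochberg over all genes) and exact permutation for single members. Correlations used 100000 permutations. On simulated data for this comparison (14993 genes, 6 against 6 arrays), 40%, 70% and 96% of the genes shifted by 0.5, 1 and 2 log2 units were recovered. Of 148 genes called there, 10 had not been shifted. The simulated noise was independent between genes, while the real arrays share set and cell type differences, so these shares are not the power of the real comparison. Of 191 entries in 13 lists, 175 had a probe set of their own, 1 found by synonym. Text names were set by rule: the members, from each list the 2 genes of smallest p and the 1 of highest mean, and for each member the 3 genes of highest r. Members and lists were chosen with earlier results of these data known. Alternatives were the normalization, the filter, the probe set rule, variance settings, blocks, covariates and left-out arrays. Promoters came from RefSeq (GRCm38.p6), found for 9 of the 10 genes. The series text calls the replicates biological. Python 3.11.15 with matplotlib 3.10.9 drew the plots.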

Additional observations from a re-analysis of the deposited data

Results flagged for a closer look

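Among 18 groups of 6 arrays (9 members in 2 genotypes), 1 value stood far from the rest of its group: Mcl1 in Zbtb32-/- replicate 4, at 9.46 where the nearest array was at 9.85. The gap was 0.707 of the group's range, above Dixon's limit for 6 samples. Chance marks about 1 in 20 such groups. Without this array the difference of Mcl1 was 0.05.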

How the results depend on the processing

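Bid, Bcl2l11 and Pmaip1 kept their sign in 26 of 26 alternatives, some of which cannot change a difference. Every other measured member changed sign in at least 1 alternative, and the cause was not tested. Among them were Bcl2 and Bcl2l1, whose 12-array differences of 0.15 and 0.14 were about as large as that of Bcl2l11 (-0.15). After renewed quantile normalization Bbc3 was 0.0343. After median centring Mcl1 was 0.0017, Bbc3 0.0161 and Bad 0.0193. Array weights gave Bad 0.0415. With the neutrophil covariate Bbc3 was 0.0302 and Bad 0.0251, and 984 genes had an unadjusted p under 0.05. With the cell division covariate Bcl2l1 was -0.24, the anti-apoptotic mean -0.14, the BH3-only mean -0.06 and that number 306. Over replicates 1 to 3 Bcl2 was -0.0617 and the number 341. Over replicates 4 to 6 Mcl1 was 0.0455, Bcl2l1 -0.0888, Bbc3 0.0152, Bad 0.105 and Bak1 -0.00606, the number was 1057, and 1 gene passed adjustment, Rny1 (-1.52), named after its value was seen. Without wild-type replicates 2 and 6 Bcl2l1 was -0.15, Bad 0.14, the anti-apoptotic mean -0.01 and Bcl2l11, with its sign kept, -0.0017. Leaving out single arrays gave -0.107 to 0.0527 for Mcl1, -0.0668 to 0.0444 for Bbc3, -0.111 to 0.0703 for Bad, 0.0574 to 0.218 for Bcl2, 0.0055 to 0.275 for Bcl2l1, -0.333 to -0.0812 for Pmaip1, -0.0207 to 0.0950 for the BH3-only mean, 0.0236 to 0.159 for the anti-apoptotic mean, and 458 to 1416 genes at an unadjusted p under 0.05. With the replicate number as a block, 0 genes passed adjustment and 914 had an unadjusted p under 0.05 in limma, where Bid had 0.00193. After removal of the genotype means, same-numbered arrays correlated at 0.02 to 0.47, with replicates 2 and 4 under 0.1. Wild-type arrays 1 and 6 correlated most with the Zbtb32-/- array of their own number. The other wild-type arrays correlated most with another number of the same set. Whether same-numbered samples are paired cannot be told from these values. The replicate set as a block gave 959. Bbc3 was not tested under the 50th percentile filter. Low signals limit Bbc3 most.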

Other observations

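Against the plasma cell, B cell, monocyte and erythroid marker means, 36 further relations chosen after the data were seen, 2 passed an adjusted permutation p of 0.05, both of Bbc3. Bbc3 rose with the mean of 12 plasma cell markers (r = 0.87, adjusted permutation p = 0.00828; rho = 0.97, adjusted permutation p = 0.00072), with r = 0.99 within replicates 1 to 3, 0.70 within replicates 4 to 6 and 0.88 without the 2 farthest arrays. An r at least as high was found for 1.69% of the genes tested. The plasma cell list holds Slamf7, named above among the genes most like Bbc3, so these 2 results are not independent. Bbc3 fell with the monocyte and macrophage markers (r = -0.80, adjusted permutation p = 0.0324; rho = -0.80, adjusted permutation p = 0.0464), at -0.62 and -0.75 within the sets and -0.77 without the 2 farthest arrays. An r as low was found for 1.16% of the genes tested. The marker means are not independent of each other. Zbtb32-/- replicate 6, highest in neutrophil markers (12.16), had 10.99 for plasma cell and 8.39 for monocyte and macrophage markers. Wild-type replicate 2, lowest in neutrophil markers (7.97), had 11.58 and 7.04. The relations of Bbc3 with these lists therefore cannot be read as separate results, and what they share was not tested. Bcl2l1 had r = 0.63 with the erythroid markers (permutation p = 0.0293, adjusted 0.273; rho = 0.53), and 0.33 without the 2 farthest arrays; it was 0.90 within replicates 1 to 3 and -0.11 within replicates 4 to 6, so the relation did not hold in both sets.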
